A study of Mus musculus with 12 samples.

Results

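The genes described here are 47 mouse genes of mitosis and the G2-M transition, listed by symbol, among 54532 genes measured by RNA sequencing of melanoma cells. They were matched to the table through their Ensembl IDs, all 47 were found, and all 47 passed the filter of at least 1 FPKM (fragments or reads per kilobase of gene, scaled to library depth) in at least 3 of 12 libraries. The list holds cyclins and CDK1, the spindle checkpoint, mitotic kinases, kinetochore proteins, kinesins, spindle factors and cytokinesis genes. The choice of genes used no measured value as its rule.

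The cells are mouse melanoma lines with an activated BRAF kinase (BRAFV600E), which every group shares. The 4 groups of 3 libraries are NTC, a non-targeted control, Gli2CA, cells labelled as carrying an active Gli2 mutant, Cas9-NTC, a non-targeted control with Cas9, and Cas9-Gli2KO, cells labelled as a CRISPR knockout of Gli2. All cultures had puromycin and the Cas9 groups also blasticidin. Gli2 is a transcription factor of the Hedgehog pathway. Which promoter drives the Gli2 mutant, which part of Gli2 was edited, and whether a line is a clone or a pool is not given in the sources used here. Whether the 3 libraries of each group stem from different cultures is not stated, and the p-values then measure only how far these libraries spread, which may be technical.

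Gli2 RNA (ENSMUSG00000048402) did not fall in the libraries labelled Gli2 knockout. All 3 NTC libraries held 0 Gli2 reads, a count that leaves room for as much as 0.0272 FPKM (3 reads), and Gli2CA held 1, 0 and 5 reads, with a 2-sided exact permutation p of 0.4. Cas9-NTC held 29, 61 and 42 reads (0.249, 0.35 and 0.235 FPKM), and the libraries labelled Gli2 knockout held 130, 140 and 345 (0.82, 0.894 and 2.14 FPKM). Each of the latter lay above every Cas9-NTC library, with a 2-sided exact permutation p of 0.1, the smallest that 3 against 3 libraries can give. RNA level alone does not show whether Gli2 protein was lost or the mutant protein was made, so the names of both groups are used as labels only.

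Cells enter mitosis when CDK1, bound to cyclin B, is switched on by CDC25 phosphatases. Chromosomes then attach through kinetochores to the spindle, the spindle checkpoint holds back the anaphase-promoting complex until they have done so, and CDC20 and securin control the separation of sister chromatids. Many of these genes are transcribed late in the cell cycle, through promoters that carry CCAAT boxes, bound by NF-Y, and CHR elements (cell cycle genes homology region), bound by MuvB complexes with B-MYB and FOXM1 or, in resting cells, by the DREAM repressor. In a population of growing cells their RNA is high where many cells are in G2 and mitosis. Fewer cells in those phases and less RNA per cell cannot be told apart in bulk samples.

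Promoters of some members are shown here, since many of the members hold the same letters. The windows were not chosen by any change in RNA, and a part of these letters in such changes was not tested. RefSeq windows from 250 bases before to 50 after the annotated start were found for 38 of the 47 genes (GRCm38.p6). The CHR motif was searched as TTTGAA on both strands, where the other strand reads as TTCAAA in the window. Its palindromic form TTCGAA was counted too. The CCAAT box was searched on both strands and reads as ATTGG from the other strand. A CHR and a CCAAT match can share a base at their ends. A CHR match was found in 28 of the 38 genes (73.7%), against 21.7% of all 27025 genes with a window and 16.1% of the 8808 tested genes that have one. A CCAAT match was found in 29 (76.3%), against 41.1% of all genes with a window. Both were found in 25 (65.8%), against 8.61% of all genes with a window. CHR matches lay close to the start, since 23 of the 38 members (60.5%) had one that began between 60 bases before and 30 after it, against 6.07% of all genes. The median CCAAT match began 66 bases before the start, where Ect2, Prc1 and Bub3 have several windows with different starts and their matches count in each. The 5 windows that follow are those of the members with both motifs and the highest mean FPKM, from 170 bases before to 30 after the start, in the direction of transcription, with CHR and CCAAT letters in capitals.

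Ube2c, chr2:164769759-164769958, plus strand: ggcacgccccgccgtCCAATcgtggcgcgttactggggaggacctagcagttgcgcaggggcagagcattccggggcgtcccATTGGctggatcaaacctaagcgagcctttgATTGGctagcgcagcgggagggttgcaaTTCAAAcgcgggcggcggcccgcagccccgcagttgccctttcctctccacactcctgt
Cdc20, chr4:118437314-118437513, minus strand: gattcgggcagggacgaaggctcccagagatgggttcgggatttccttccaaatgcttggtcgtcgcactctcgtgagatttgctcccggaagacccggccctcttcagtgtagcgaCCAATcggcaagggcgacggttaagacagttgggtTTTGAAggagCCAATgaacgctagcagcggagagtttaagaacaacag
Ccnb2, chr9:70421525-70421724, minus strand: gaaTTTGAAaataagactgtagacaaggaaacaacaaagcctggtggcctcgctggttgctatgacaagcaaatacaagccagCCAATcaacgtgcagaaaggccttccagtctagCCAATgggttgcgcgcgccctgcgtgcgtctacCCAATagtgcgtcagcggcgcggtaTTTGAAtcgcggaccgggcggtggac
Plk1, chr7:122159265-122159464, plus strand: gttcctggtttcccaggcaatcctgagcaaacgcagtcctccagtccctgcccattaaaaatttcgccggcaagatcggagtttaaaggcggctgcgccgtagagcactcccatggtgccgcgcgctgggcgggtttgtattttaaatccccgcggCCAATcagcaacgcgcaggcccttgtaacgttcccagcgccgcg
Cdk1, chr10:69352883-69353082, minus strand: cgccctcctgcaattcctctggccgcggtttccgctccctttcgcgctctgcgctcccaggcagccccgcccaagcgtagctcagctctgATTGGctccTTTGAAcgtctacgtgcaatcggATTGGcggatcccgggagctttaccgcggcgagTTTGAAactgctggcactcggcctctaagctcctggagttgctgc

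With the start base counted as 0, the CHR match of Ube2c begins at -29, that of Cdc20 at -18, those of Ccnb2 at -167 and 4, and those of Cdk1 at -71 and -15. The CHR match of Plk1 begins at 30, just past the printed stretch, which therefore shows only its CCAAT match. A match is a description of the letters and no evidence of a bound factor. DNA replication and G1-S genes, which are transcribed earlier in the cell cycle, had a CHR match in 6 of 26 genes with a window (23.1%). The other G2-M genes listed further on had one in 25 of 43 (58.1%). The CCAAT box set the members less apart, with a match in 65.4% of these replication genes and 69.8% of these other G2-M genes. It was found in 64.7% of the regulators listed further on.

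Gli2CA cells held less RNA of the whole set than NTC cells. All 47 genes had a lower mean, against 49.0% of the 11860 genes tested, and 32 were called lower and 0 higher at an adjusted p (limma) under 0.05. At an unadjusted p under 0.05, 42 were lower and 0 higher, beside 1392 lower and 1675 higher among all 11860 genes tested. Of all genes tested, 5.76% were called lower and 8.45% higher. In 46 of 47 members, all but Pttg1, every Gli2CA library lay below every NTC library, which held for 20.4% of all genes. The median log2 change of the members was -0.54, against 0.00 for all genes, with a range from -0.81 (Ttk) to -0.13 (Pttg1) and an SD over the members of 0.15. All changes are differences of mean log2(FPKM + 1), a scale on which low genes appear to change less. The FPKM of the 47 genes summed to 1108 ± 52.8 in NTC and 758.1 ± 4.84 in Gli2CA (SD, n = 3 each). Scaling each library to a common FPKM total moved the median of all genes by -0.13, and the members then had a median of -0.68 with 32 called lower.

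**Figure D1:**
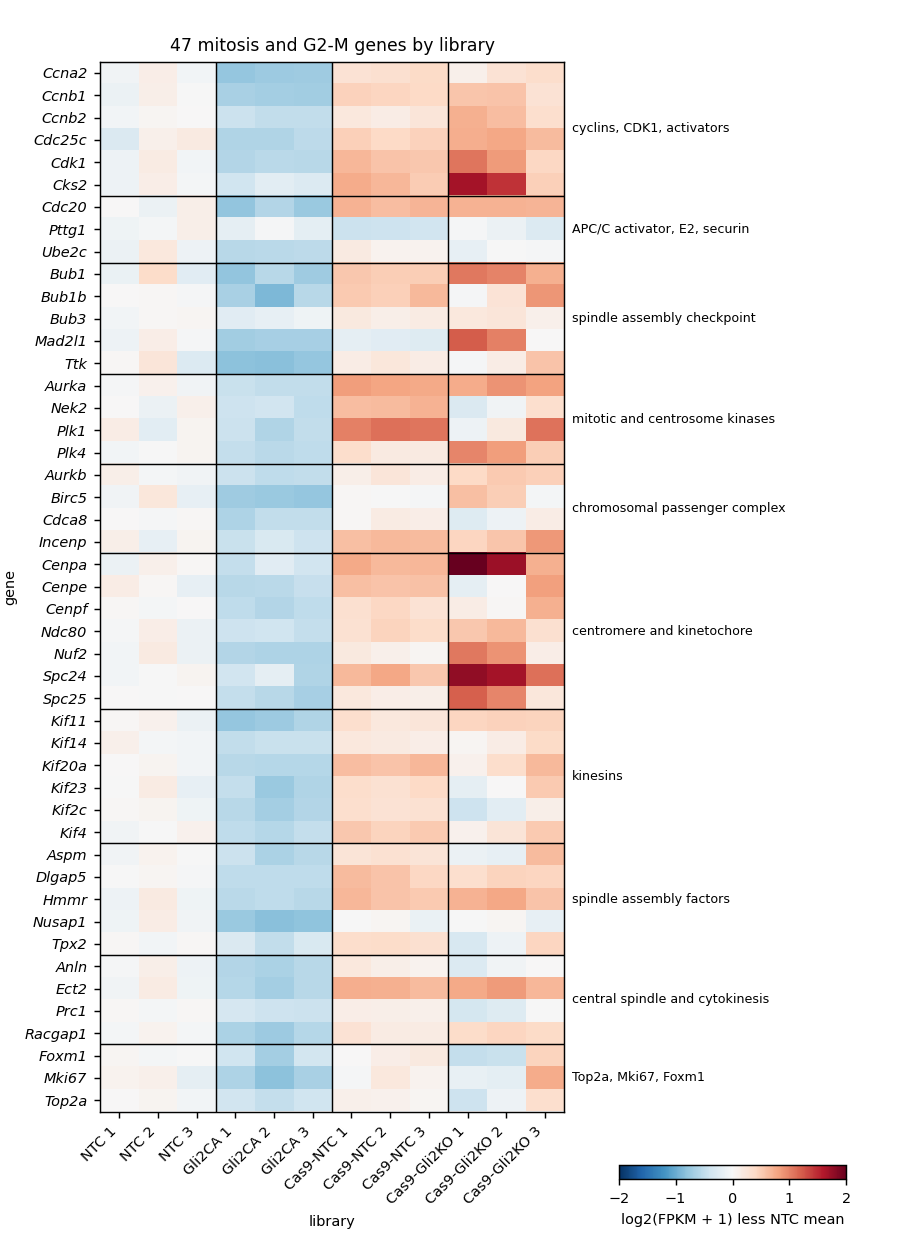
Log2(FPKM + 1) of each of the 47 genes (rows, grouped by role) in each of the 12 libraries (columns), less the mean of the 3 NTC libraries. Nearly every gene is lower in all 3 Gli2CA libraries, most are higher in Cas9-NTC than in NTC, and libraries 1 and 2 labelled Gli2 knockout differ from library 3.

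The libraries labelled Gli2 knockout gave no such common shift against Cas9-NTC. In this comparison 8 members were called higher and 3 lower, 23.4% of the members against 26.8% of all genes tested (11.2% higher and 15.7% lower). Their median log2 change was 0.03 and their range was from -0.67 (Plk1) to 0.96 (Mad2l1). The genes called higher were Ccnb2, Mad2l1, Plk4, Aurkb, Cenpa, Nuf2, Spc24 and Spc25, of which 4 are kinetochore or centromere genes, and those called lower were Nek2, Kif2c and Prc1. Every library lay above every Cas9-NTC library for 11 members and below for 5, while 15.5% and 19.4% of all genes did so. The share of members called was thus close to that of all genes. Scaling to a common FPKM total moved the median of all genes by -0.14 here and turned that of the members to -0.15, with 5 called higher and 3 lower.

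The libraries behind these calls differ from each other. Libraries 1 and 2 labelled Gli2 knockout differed from library 3 by chi-squares of 299 and 175 per degree of freedom over all genes, while no other pair of libraries of a group exceeded 24.7. The members spread widely in libraries 1 and 2, with an SD over the 47 log2 differences from the Cas9-NTC mean of 0.6 and 0.47, and little in library 3, with 0.2. Plk1 was the lowest and Mad2l1 the highest member in both of the former, at -1.17 and 1.44 in library 1 and -0.86 and 1.23 in library 2. In library 3 the extremes were Nek2 at -0.3 and Mki67 at 0.66. FPKM totals were 407846, 370982 and 293496 in libraries 1, 2 and 3, and no library outside that group exceeded 361790.

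Without library 3, 16 members were called higher and 17 lower, but 30.9% and 34.8% of all genes were then called. With only the Cas9 groups in the fit, limma called 0 higher and 0 lower, and 9 and 3 at an unadjusted p under 0.05. In that fit 6.42% of all genes were called. At an unadjusted p under 0.05, 1508 of 11860 genes were higher and 1890 lower in it. None of the 11 calls held under all 17 alternative settings. Gene length also moved with this comparison. Across 11856 genes the log2 change had a Spearman rho with gene length of -0.34, and of -0.41, -0.38 and 0.16 in libraries 1, 2 and 3. Over the 47 members, which are 692 to 15433 bases long, rho was -0.18. With the trend on length removed, 9 members were called higher and 2 lower (12.3% and 16.9% of all genes). The part of length, or of any difference in preparation, in the values of library 3 was not tested.

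**Figure D2:**
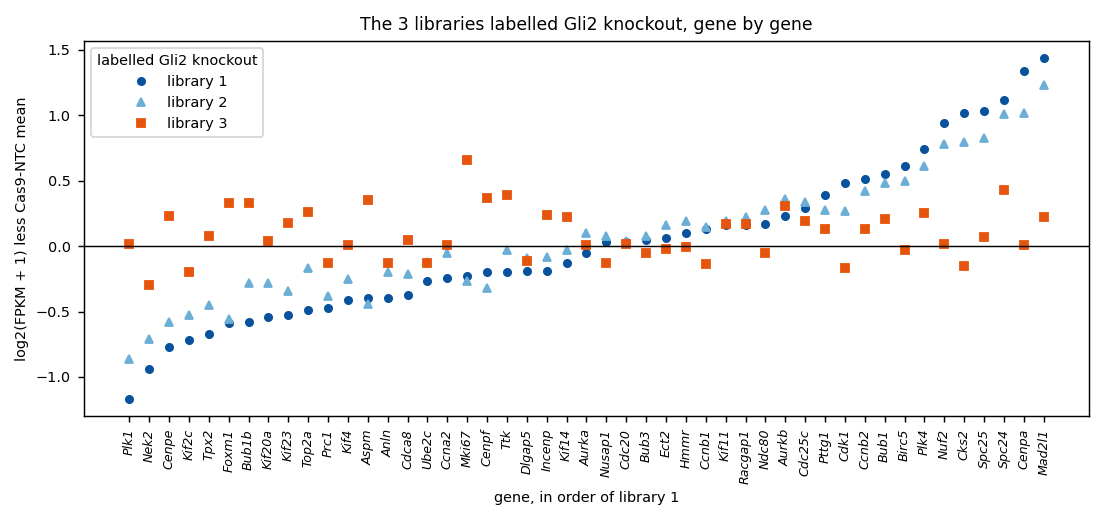
Log2(FPKM + 1) of each of the 47 genes in the 3 libraries labelled Gli2 knockout, less the Cas9-NTC mean, with genes in the order of library 1. Libraries 1 and 2 run together from Plk1 to Mad2l1, and library 3 stays between -0.3 and 0.66.

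The difference of both changes, Gli2CA against NTC less the labelled knockout against Cas9-NTC, was tested in the same fit. It was called lower for 26 members and higher for 0, with 33 and 0 at an unadjusted p under 0.05. Of all genes, 11.6% were called lower and 16.7% higher. At an unadjusted p under 0.05, 2240 of all 11860 genes were lower and 2745 higher. The median difference of the members was -0.57 on the log2 scale. Ccnb2, Plk4 and Aurkb were called lower in Gli2CA and higher in the labelled knockout, and Kif2c and Prc1 were called lower in both. Across the 47 genes the changes in both comparisons, which share no libraries, had a Pearson r of 0.02, against -0.28 across all 11860 genes tested, where genes are not independent replicates and the difference between these values was not tested. All 47 changes were below 0 in Gli2CA, and 26 were above and 21 below 0 in the labelled knockout.

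**Figure D3:**
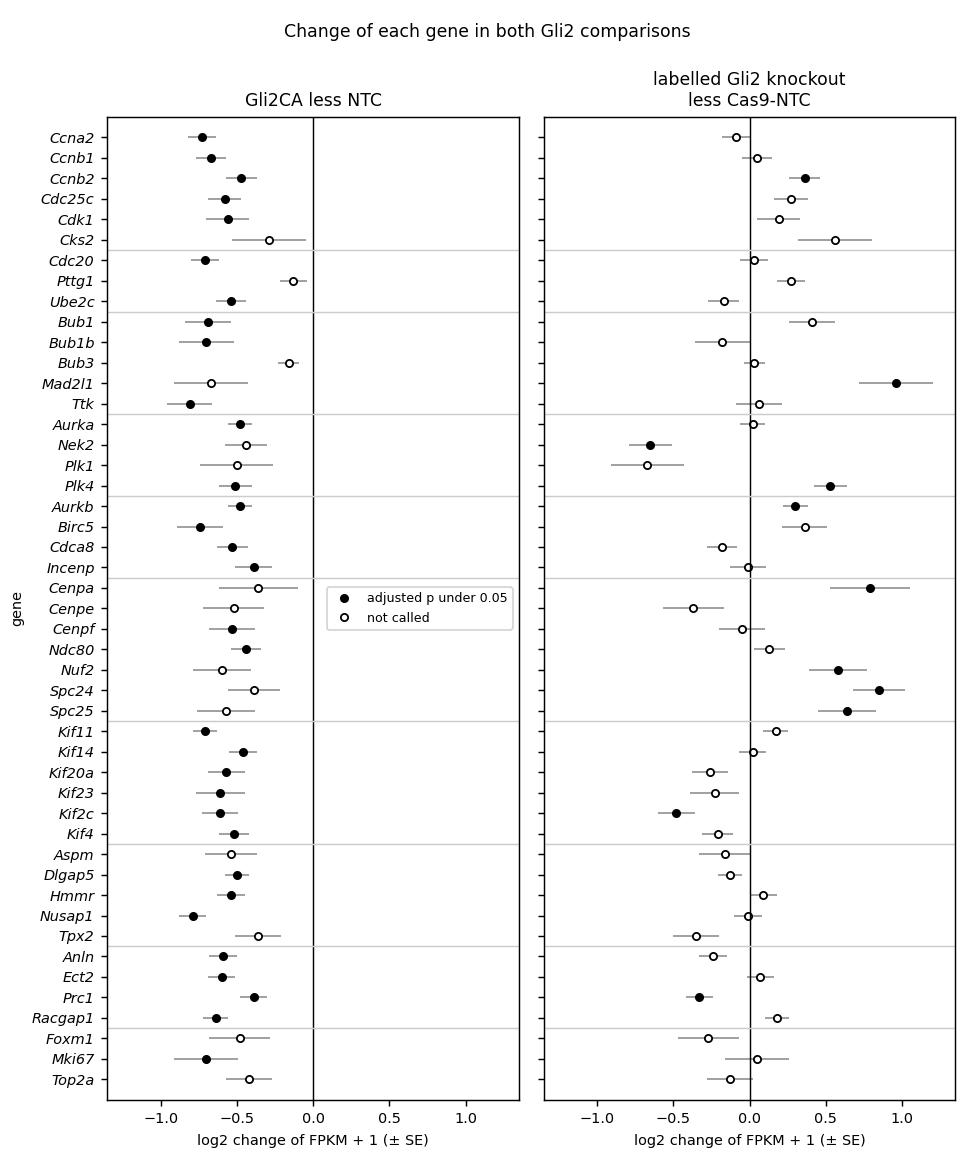
Log2 change of FPKM + 1 with its SE (limma) for each of the 47 genes in both Gli2 comparisons, grouped by role, with filled points for genes called at an adjusted p under 0.05. All points lie left of 0 in Gli2CA, and they lie on both sides of 0 in the libraries labelled Gli2 knockout.

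The control lines themselves differed. Against NTC, Cas9-NTC held more RNA of most members, with 24 called higher and 1 lower (Pttg1), a median log2 change of 0.34 and a summed FPKM of 1467 ± 31.8 (SD, n = 3). Of all genes, 24.0% were called higher and 24.9% lower. Every Cas9-NTC library lay above every NTC library for 35 members and below for 2, against 34.5% and 34.9% of all genes. The labelled knockout libraries summed to 1624 ± 113.2. As a share of the FPKM total of each library, the members made up 0.417, 0.452 and 0.509% in the labelled knockout and 0.469 to 0.471% in Cas9-NTC. The groups also differ in identity markers, since Sox10, a melanocyte lineage factor, lay between 154.5 and 196.7 FPKM in NTC and Gli2CA and between 0 and 0.058 in the Cas9 groups. Of the 7 melanocyte markers, 2 reached 1 FPKM in NTC and Gli2CA and 1, Mitf, in the Cas9 groups, while Dct and Tyrp1, pigment genes, were listed at 0 in every library. Line, Cas9 and blasticidin cannot be told apart in this comparison, which shares NTC with the first and Cas9-NTC with the second.

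Mitotic cyclins and CDK1 fell in Gli2CA, with 5 of 6 members called lower and a group median of -0.57 on the log2 scale. Beside this and the following role groups, 5.76% of all genes were called lower and 8.45% higher in Gli2CA. In the labelled knockout, 11.2% of all genes were called higher and 15.7% lower. Ccna2 encodes cyclin A, which acts in S phase and G2. It lay at 38.4, 44.4 and 39.1 FPKM in NTC and at 23.4, 24.1 and 24.5 in Gli2CA, a log2 change of -0.73 (SE 0.09, adjusted p = 0.000198 by limma). It measured 50, 51.0 and 53.3 in Cas9-NTC and 43.4, 49.6 and 51.9 in the labelled knockout, which overlapped (log2 change -0.09, adjusted p = 0.432 by limma). Exosc9 overlaps 12.5% of the exon length of Ccna2 on the other strand, and the use of strand in counting is not given in the sources used here, so its level is uncertain.

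Ccnb1 (ENSMUSG00000041431, chromosome 13, 100778650 to 100786570, minus strand, GRCm38) encodes cyclin B1, the main partner of CDK1 at mitotic entry. Its FPKM was 38.1, 44.9 and 40.9 in NTC, 26.0, 25.4 and 25.1 in Gli2CA, 56.9, 55.9 and 54.5 in Cas9-NTC and 61.3, 61.9 and 50.4 in the labelled knockout. The Gli2CA libraries all lay below NTC by a log2 change of -0.67 (SE 0.10, adjusted p = 0.000602 by limma), while library 3 of the labelled knockout fell below Cas9-NTC and the other 2 above it (0.05, SE 0.10, adjusted p = 0.728 by limma). Cdk1 (ENSMUSG00000019942, chromosome 10, 69335146 to 69352938, minus strand), the mitotic kinase itself, was at 30.9, 37.2 and 31.8 in NTC, 21.7, 22.5 and 22.2 in Gli2CA, 53.2, 50 and 48.6 in Cas9-NTC and 70.8, 61.0 and 44.7 in the labelled knockout. Its change was -0.56 in Gli2CA (SE 0.14, adjusted p = 0.0214 by limma) and 0.19 in the labelled knockout (SE 0.14, adjusted p = 0.312 by limma). In the labelled knockout, libraries 1 and 2 lay above and library 3 below the Cas9-NTC range. Pseudogenes are annotated for both B-type cyclins of the set, Ccnb1-ps and Ccnb2-ps.

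Ccnb2, the other B-type cyclin of mitosis, was at 55.1, 58.5 and 57.6 FPKM in NTC, 42.0, 40.2 and 40.2 in Gli2CA, 66.3, 63.5 and 67.6 in Cas9-NTC and 94.3, 88.3 and 72.2 in the labelled knockout. It was lower in every Gli2CA library (log2 change -0.47, SE 0.10, adjusted p = 0.00704 by limma) and higher in every labelled knockout library (0.36, SE 0.10, adjusted p = 0.0237 by limma). The latter call held under 8 of 17 alternative settings, over which the adjusted p ran from 4.9e-07 to 0.41, and the difference of both changes held under all 21. Cdc25c, a phosphatase that activates CDK1, was 10.7, 14.3 and 15.2 in NTC and 8.35, 8.37 and 8.95 in Gli2CA, with no overlap (log2 change -0.58, adjusted p = 0.00462 by limma). In the Cas9 groups its values were 18.8, 17.8 and 18.6 for Cas9-NTC and 22.6, 23.5 and 21.1 for the labelled knockout, also without overlap but not called (0.27, adjusted p = 0.0834 by limma). Gm3550 overlaps 12.7% of the exon length of Cdc25c on the other strand. Cks2, a small subunit of CDK complexes, was the most abundant member, at 107.7, 127.4 and 112.3 in NTC, 87.0, 100 and 95.4 in Gli2CA, 193.2, 183.5 and 165.3 in Cas9-NTC and 366.5, 314.9 and 161.8 in the labelled knockout. It was the member of this group that was not called in Gli2CA (log2 change -0.29, SE 0.24, adjusted p = 0.512 by limma). Between the control lines it was called higher in Cas9-NTC (0.64, adjusted p = 0.0447 by limma), as was Cdk1 (0.59, adjusted p = 0.00475 by limma).

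Among the genes that control exit from mitosis, Cdc20 and Ube2c fell in Gli2CA and Pttg1 was not called. Cdc20 (ENSMUSG00000006398, chromosome 4, 118432901 to 118437352, minus strand) activates the anaphase-promoting complex. It was at 54.7, 50.3 and 59.3 FPKM in NTC, 31.2, 35.9 and 32.2 in Gli2CA, 89.5, 84.0 and 88.0 in Cas9-NTC and 89.1, 89.3 and 88.3 in the labelled knockout. The NTC and Gli2CA ranges were apart (log2 change -0.71, SE 0.09, adjusted p = 0.000185 by limma), the Cas9 groups overlapped (0.03, SE 0.09, adjusted p = 0.816 by limma), and the control lines were apart (0.66, adjusted p = 5.19e-05 by limma). Ube2c, the ubiquitin-conjugating enzyme of that complex, was at 78.6, 99.6 and 79.7 in NTC, 58.1, 58.7 and 59.0 in Gli2CA, 96.9, 89.8 and 89.6 in Cas9-NTC and 76.3, 84.8 and 83.8 in the labelled knockout. The gene was called lower in Gli2CA (log2 change -0.54, adjusted p = 0.00364 by limma) and not called in the labelled knockout, where every library was lower (-0.17, adjusted p = 0.191 by limma). Tnnc2 overlaps 22.8% of its exon length on the other strand. Pttg1 encodes securin, which holds separase inactive until anaphase. It was 9.5, 9.86 and 11.1 in NTC, 8.8, 10.0 and 8.71 in Gli2CA, 7.29, 7.39 and 7.56 in Cas9-NTC and 10.0, 9.21 and 8.23 in the labelled knockout, so that NTC and Gli2CA overlapped (log2 change -0.13, SE 0.09, adjusted p = 0.431 by limma). It was the member called lower in Cas9-NTC than in NTC (-0.40, SE 0.09, adjusted p = 0.00335 by limma).

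In the spindle checkpoint, 3 of 5 genes were called lower in Gli2CA and 1, Mad2l1, was called higher in the labelled knockout. Bub1 (ENSMUSG00000027379, chromosome 2, 127801122 to 127831865, minus strand), a checkpoint kinase at kinetochores, was at 14.5, 20.9 and 13.6 FPKM in NTC, 8.86, 10.6 and 9.43 in Gli2CA, 23.9, 22.9 and 22.9 in Cas9-NTC and 34.5, 32.9 and 27.0 in the labelled knockout. It was lower in every Gli2CA library (log2 change -0.69, SE 0.15, adjusted p = 0.00925 by limma) and higher in every labelled knockout library, where it missed the threshold (0.41, SE 0.15, adjusted p = 0.0586 by limma). Ttk, the kinase MPS1 that starts the checkpoint signal, had the largest fall of the 47, from 5.48, 6.56 and 4.29 in NTC to 2.63, 2.56 and 2.71 in Gli2CA (log2 change -0.81, SE 0.15, adjusted p = 0.00417 by limma). Its mean FPKM in NTC was 2.06 times that in Gli2CA, and in the Cas9 groups it ran from 5.25 to 8.42 with overlap. Bub1b, which encodes the checkpoint protein BUBR1, was 13.3, 13.5 and 13.0 in NTC, 8.13, 6.66 and 8.67 in Gli2CA, 19.4, 18.9 and 21.3 in Cas9-NTC and 13.0, 16.2 and 25.2 in the labelled knockout. It was called lower in Gli2CA (log2 change -0.70, adjusted p = 0.0266 by limma), and library 3 of the labelled knockout lay on the other side of Cas9-NTC from the rest.

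Mad2l1 (ENSMUSG00000029910, chromosome 6, 66535390 to 66547220, plus strand) encodes MAD2, the protein that inhibits CDC20 while chromosomes are unattached. Its FPKM was 11.4, 13.7 and 12.1 in NTC, 7.23, 7.44 and 7.46 in Gli2CA, 10.8, 10.4 and 10.2 in Cas9-NTC and 30.1, 26.0 and 12.4 in the labelled knockout. Every labelled knockout library was above Cas9-NTC, library 3 by much less than the others (log2 change 0.96, SE 0.24, adjusted p = 0.0162 by limma), and this call held under 12 of 17 alternatives. Every Gli2CA library was below NTC, without a call (-0.67, SE 0.24, adjusted p = 0.0947 by limma), although the SD within NTC and Gli2CA was 1.23 and 0.127. The SE is shared by all 4 groups, so that members which vary among the labelled knockout libraries have a wide SE in every comparison. With only NTC and Gli2CA in the fit, 44 of the 47 genes were called lower, and 24.6% of all genes were called in either direction. Bub3, a further checkpoint protein, hardly moved, with a log2 change of -0.16 in Gli2CA (adjusted p = 0.215 by limma) and 0.03 in the labelled knockout (adjusted p = 0.787 by limma).

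The mitotic kinases split in the libraries labelled Gli2 knockout. Plk1 (ENSMUSG00000030867, chromosome 7, 122159439 to 122169873, plus strand), a kinase of mitotic entry, spindle poles and cytokinesis, was at 37.4, 28.7 and 35.0 FPKM in NTC, 24.7, 21.7 and 23.6 in Gli2CA, 68.3, 73.4 and 71.7 in Cas9-NTC and 31, 38.7 and 72.3 in the labelled knockout. Libraries 1 and 2 of the labelled knockout lay near the NTC values and library 3 within Cas9-NTC (log2 change -0.67, SE 0.24, adjusted p = 0.0569 by limma). Gli2CA libraries lay below NTC without a call (-0.50, SE 0.24, adjusted p = 0.214 by limma). Plk1 had the largest difference between the control lines, where Cas9-NTC was 2.11 times NTC (log2 change 1.06, adjusted p = 0.00304 by limma). Aurka, the kinase of centrosomes and spindle poles, followed at 0.79 (adjusted p = 3.81e-06 by limma). It was 24.8, 27.0 and 24.1 in NTC, 18.3, 17.6 and 17.6 in Gli2CA, 45.8, 44.3 and 43.5 in Cas9-NTC and 43.0, 47.9 and 44.9 in the labelled knockout. The fall in Gli2CA was called (-0.48, SE 0.08, adjusted p = 0.00121 by limma), and the Cas9 groups overlapped (0.02, adjusted p = 0.84 by limma).

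Plk4, the kinase that starts centriole duplication, was at 9.01, 9.36 and 9.74 FPKM in NTC, 6.41, 6.1 and 6.28 in Gli2CA, 12.2, 10.8 and 10.8 in Cas9-NTC and 19.5, 17.6 and 13.6 in the labelled knockout. The gene was called lower in Gli2CA (log2 change -0.51, SE 0.11, adjusted p = 0.0108 by limma) and higher in the labelled knockout (0.53, SE 0.11, adjusted p = 0.00797 by limma), without overlap in either comparison. The second call held under 16 of 17 alternatives, all but the fit of the Cas9 groups alone, and the difference of both changes was -1.05 (adjusted p = 0.00076 by limma). Nek2, a centrosome kinase, was 10.1, 9.14 and 10.8 in NTC, 7.21, 7.47 and 6.7 in Gli2CA, 15.8, 16.1 and 16.8 in Cas9-NTC and 8.0, 9.51 and 12.9 in the labelled knockout. Each labelled knockout library lay below each Cas9-NTC library (log2 change -0.65, SE 0.14, adjusted p = 0.00726 by limma), a call that held under 16 of 17 alternatives.

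All 4 genes of the chromosomal passenger complex, which corrects faulty attachments and directs cytokinesis, were called lower in Gli2CA. Aurkb (ENSMUSG00000020897, chromosome 11, 69045647 to 69051664, plus strand), its kinase, was at 23.7, 21 and 20.6 FPKM in NTC, 15.9, 15.0 and 15.2 in Gli2CA, 23.6, 25.9 and 24.1 in Cas9-NTC and 28.9, 31.8 and 30.6 in the labelled knockout. The 3 labelled knockout libraries were alike for this gene and above Cas9-NTC (log2 change 0.30, SE 0.08, adjusted p = 0.0216 by limma, called under 9 of 17 alternatives). The Gli2CA libraries were below NTC (-0.48, SE 0.08, adjusted p = 0.00201 by limma). Birc5, which encodes survivin, was 23.6, 29.2 and 21.9 in NTC, 14.7, 14.4 and 14 in Gli2CA, 25.2, 24.6 and 24.3 in Cas9-NTC and 38.2, 35.3 and 24.1 in the labelled knockout. It had the largest fall of the complex in Gli2CA (log2 change -0.74, adjusted p = 0.00735 by limma), and in the labelled knockout only library 3 was not above Cas9-NTC (0.36, adjusted p = 0.0959 by limma).

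Cdca8, which encodes borealin, was 12.5, 12.2 and 12.6 FPKM in NTC and 7.73, 8.57 and 8.55 in Gli2CA (log2 change -0.53, adjusted p = 0.00462 by limma). It overlapped between the Cas9 groups, at 12.6, 14.1 and 13.7 in Cas9-NTC and 10.2, 11.5 and 13.9 in the labelled knockout. Incenp, the scaffold of the complex, was 22.8, 18.6 and 21.7 in NTC and 15.1, 16.7 and 15.4 in Gli2CA (-0.39, adjusted p = 0.0443 by limma). The Incenp call held under 6 of 16 alternative settings, those of Aurkb, Birc5 and Cdca8 under all 16. Cas9-NTC held 32.4, 33.4 and 33.2, called higher than in NTC (0.63, adjusted p = 0.000744 by limma), and the labelled knockout 28.7, 31.2 and 39.2. The genes of this complex thus fell together in Gli2CA. In libraries 1 and 2 of the labelled knockout, Birc5 (0.61 and 0.50) and Aurkb (0.23 and 0.36) lay above the Cas9-NTC mean on the log2 scale. Cdca8 (-0.37 and -0.21) and Incenp (-0.19 and -0.08) lay below it, and Incenp was not called without library 3 (adjusted p = 0.17 by limma). In library 3, Birc5, Aurkb, Cdca8 and Incenp were at -0.03, 0.31, 0.05 and 0.24.

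Centromere and kinetochore genes were called in 4 of 7 cases in the labelled knockout, all higher, and in 2 of 7 in Gli2CA, both lower. Of all genes, 11.2% were called higher in the former and 5.76% lower in the latter. For all 7 genes every Gli2CA library lay below every NTC library, as for 20.4% of all genes, with a median log2 change of -0.52. At an unadjusted p under 0.05 (limma), 6 of the 7 were lower in Gli2CA, beside 1392 of all 11860 genes. None of the 4 higher calls held with only the Cas9 groups in the fit. Cenpa (ENSMUSG00000029177, chromosome 5, 30666777 to 30674830, plus strand), the histone H3 variant of centromeres, was at 15.0, 17.5 and 16.5 FPKM in NTC, 11.5, 13.8 and 12.2 in Gli2CA, 28.2, 26.2 and 26.3 in Cas9-NTC and 69.5, 55.4 and 27.2 in the labelled knockout. Library 3 of the labelled knockout lay inside the Cas9-NTC range, and the call (log2 change 0.79, SE 0.26, adjusted p = 0.0429 by limma) rests on libraries 1 and 2. Cenpa was lower in every Gli2CA library without a call (-0.36, SE 0.26, adjusted p = 0.446 by limma). Between the control lines it was called higher in Cas9-NTC (0.69, adjusted p = 0.0441 by limma).

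The NDC80 complex binds microtubules at the kinetochore, and its 4 genes are all members. Spc24 was at 5.38, 5.58 and 5.83 FPKM in NTC, 4.04, 4.83 and 3.34 in Gli2CA, 9.33, 10.3 and 8.62 in Cas9-NTC and 21.6, 20 and 13.1 in the labelled knockout, each library of which was above Cas9-NTC (log2 change 0.85, SE 0.17, adjusted p = 0.00491 by limma). Spc25 was 15.8, 15.7 and 15.9 in NTC, 11.1, 10.4 and 9.56 in Gli2CA, 18.5, 17.4 and 17.2 in Cas9-NTC and 37.3, 32.1 and 18.6 in the labelled knockout (0.64, adjusted p = 0.0316 by limma). Nuf2 was 18.9, 22.5 and 18.1 in NTC, 12.8, 12.6 and 12.6 in Gli2CA, 22.7, 21.2 and 20.4 in Cas9-NTC and 42.1, 37.5 and 21.7 in the labelled knockout (0.58, adjusted p = 0.0462 by limma). In Spc25 and Nuf2, library 3 lay next to or inside the Cas9-NTC range and libraries 1 and 2 far above it. The fourth gene, Ndc80, went from 8.03, 9.01 and 8.42 in Cas9-NTC to 9.63, 10.5 and 8.15 in the labelled knockout, with overlap (0.13, adjusted p = 0.312 by limma). In Gli2CA, Ndc80 was the gene of the complex that was called, from 6.25, 7.03 and 5.79 to 4.5, 4.54 and 4.25 (-0.44, SE 0.10, adjusted p = 0.0128 by limma), while changes of Spc24, Spc25 and Nuf2 were -0.39, -0.57 and -0.60 with adjusted p of 0.164, 0.077 and 0.0626.

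Both large kinetochore proteins of the set behaved differently from the NDC80 complex in the labelled knockout. Cenpf, a protein of the outer kinetochore, was at 2.77, 2.6 and 2.7 FPKM in NTC and 1.6, 1.47 and 1.59 in Gli2CA, a call (log2 change -0.53, SE 0.15, adjusted p = 0.0317 by limma). The Cenpf call held under 7 of 16 alternative settings. Cas9-NTC held 3.63, 3.94 and 3.49 and the labelled knockout 3.07, 2.76 and 5.04. Cenpe, a kinesin that carries chromosomes to the spindle equator, measured 9.12, 8.95 and 9.03 in Cas9-NTC and 4.9, 5.7 and 10.8 in the labelled knockout (-0.37, adjusted p = 0.175 by limma). In both genes libraries 1 and 2 lay below and library 3 above the Cas9-NTC range, whereas in Cenpa and Nuf2 libraries 1 and 2 lay above that range and library 3 inside it.

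The 6 Kif genes, which encode kinesin motors, were all called lower in Gli2CA, by log2 changes from -0.71 to -0.46. Kif11 (ENSMUSG00000012443, chromosome 19, 37376403 to 37421859, plus strand), the motor that pushes spindle poles apart, was at 21, 21.9 and 19.0 FPKM in NTC, 11.6, 12 and 13.2 in Gli2CA, 26.3, 24.1 and 24.6 in Cas9-NTC and 28.0, 28.6 and 28.3 in the labelled knockout. It had the smallest adjusted p of the set in Gli2CA (log2 change -0.71, SE 0.08, adjusted p = 0.000121 by limma). All 3 labelled knockout libraries were alike and above Cas9-NTC, without a call (0.17, adjusted p = 0.118 by limma). Kif2c, the microtubule depolymerase MCAK, was 15.7, 16.0 and 14.4 in NTC, 10.1, 9.2 and 9.91 in Gli2CA, 19.6, 18.9 and 19.3 in Cas9-NTC and 11.3, 13.1 and 16.7 in the labelled knockout. It was called lower in both comparisons (log2 changes -0.61 and -0.48, adjusted p = 0.00462 and 0.0141 by limma), and the groups did not overlap in either.

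Kif23, a motor of the central spindle, went from 6.38, 7.29 and 5.6 FPKM in NTC to 4.29, 3.44 and 3.86 in Gli2CA (log2 change -0.61, adjusted p = 0.0264 by limma), and overlapped between the Cas9 groups. Kif20a, a motor needed for cytokinesis, was 25.5, 26.2 and 24.2 in NTC, 16.9, 16.7 and 16.7 in Gli2CA, 39.4, 38.2 and 40.6 in Cas9-NTC and 26.8, 32.4 and 40.4 in the labelled knockout. The gene was called lower in Gli2CA (-0.57, adjusted p = 0.00852 by limma) and higher in Cas9-NTC than in NTC (0.62, adjusted p = 0.0012 by limma), and Cdc23 overlaps 29.3% of its exon length on the other strand. Kif4, a chromosome-bound motor, was called higher between the control lines too (0.50, adjusted p = 0.00184 by limma), from 6.72, 7.07 and 7.57 to 10.8, 10.0 and 10.6. Pdzd11 overlaps 15.1% of the exon length of Kif4, and a pseudogene, Kif4-ps, is annotated. Kif14 was the least abundant of the 47 genes, at 2.52, 2.18 and 2.16 in NTC and 1.33, 1.42 and 1.42 in Gli2CA, and was called all the same (-0.46, adjusted p = 0.0073 by limma). No Kif gene was called higher in the labelled knockout, also at an unadjusted p under 0.05, where limma had 0 higher and 1 lower. Of all 11860 genes tested, 2447 were higher and 2847 lower at that threshold.

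**Figure D4:**
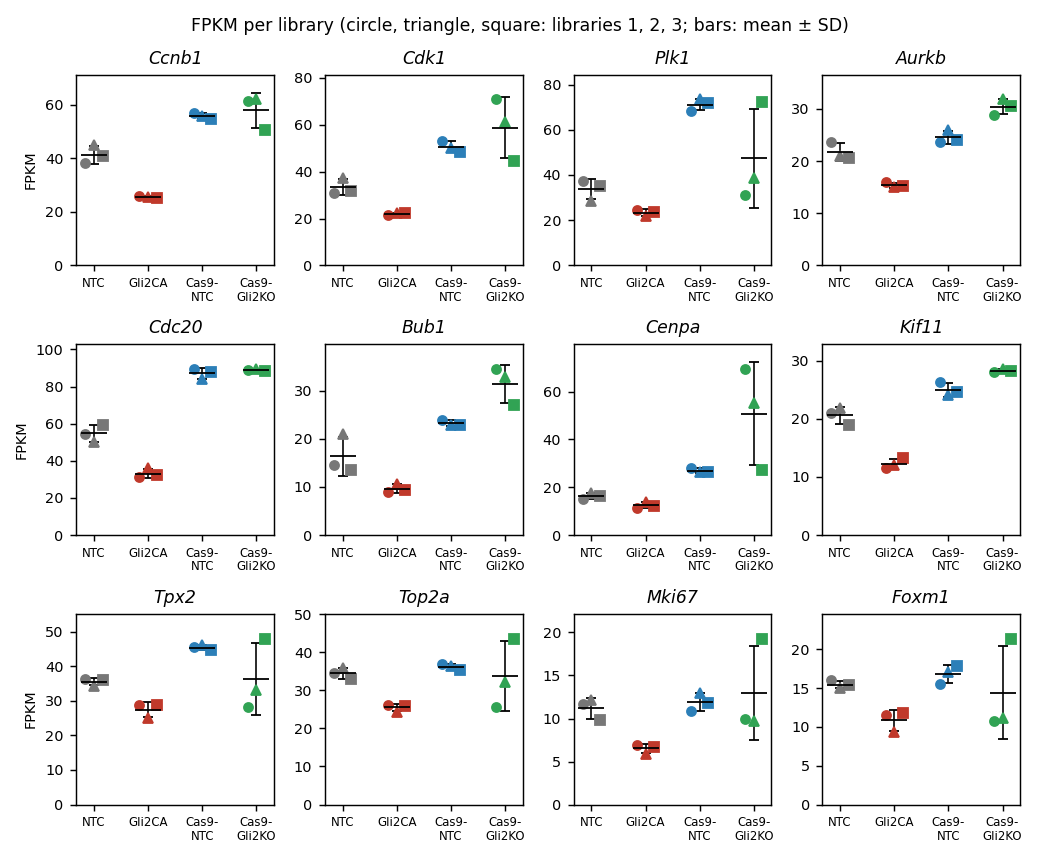
FPKM of 12 genes in each library (symbols by library number) with the mean and SD of each group of 3. Gli2CA lies below NTC in every panel. In Ccnb1, Cdk1, Plk1, Bub1, Cenpa, Tpx2, Top2a, Mki67 and Foxm1 library 3 of the labelled knockout lies apart from libraries 1 and 2.

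Of the 5 spindle assembly and microtubule-binding factors, 3 were called lower in Gli2CA and none in either direction in the labelled knockout. At an unadjusted p under 0.05, limma gave 0 higher and 1 lower in the labelled knockout, beside 2447 and 2847 of all 11860 genes. Nusap1, which binds and bundles spindle microtubules, was at 18.7, 22.3 and 19.0 FPKM in NTC, 11.5, 10.7 and 11 in Gli2CA, 19.8, 20.4 and 18.2 in Cas9-NTC and 19.8, 20.5 and 17.6 in the labelled knockout. It had the second largest fall of the set in Gli2CA (log2 change -0.79, SE 0.09, adjusted p = 0.000137 by limma), and the Cas9 groups overlapped with a change of -0.01 (SE 0.09, adjusted p = 0.942 by limma). Hmmr, a spindle-pole factor and hyaluronan receptor, was 20.4, 25.2 and 20.8 in NTC, 14.8, 15.2 and 14.6 in Gli2CA, 35.5, 33.3 and 32.0 in Cas9-NTC and 36.2, 38.4 and 33.3 in the labelled knockout (-0.54, adjusted p = 0.00273 by limma in Gli2CA). Dlgap5, a factor that stabilises kinetochore fibres, was 8.58, 8.88 and 8.49 in NTC, 5.77, 5.81 and 5.82 in Gli2CA and 13.9, 13.3 and 11.8 in Cas9-NTC. It was called lower in Gli2CA (-0.50, adjusted p = 0.000906 by limma) and higher in Cas9-NTC than in NTC (0.54, adjusted p = 0.000115 by limma), as was Hmmr (0.58, adjusted p = 0.000325 by limma).

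Tpx2 (ENSMUSG00000027469, chromosome 2, 152847964 to 152895321, plus strand), which activates Aurora A on the spindle, was at 36.2, 34.3 and 36 FPKM in NTC, 28.8, 24.9 and 28.7 in Gli2CA, 45.5, 46.0 and 44.6 in Cas9-NTC and 28.1, 33.0 and 48.0 in the labelled knockout. It was lower in every Gli2CA library but not called (log2 change -0.36, SE 0.15, adjusted p = 0.164 by limma). In the labelled knockout, libraries 1 and 2 were below and library 3 above Cas9-NTC (-0.35, SE 0.15, adjusted p = 0.106 by limma). Aspm, a spindle-pole protein, was not called in either Gli2 comparison (-0.54 and -0.16, adjusted p = 0.0632 and 0.481 by limma).

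All 4 central spindle and cytokinesis genes were called lower in Gli2CA. Racgap1, a part of the centralspindlin complex, was at 31.2, 33.4 and 31.2 FPKM in NTC, 20.3, 19.0 and 21.1 in Gli2CA, 39.3, 35.8 and 36 in Cas9-NTC and 41.6, 43.2 and 41.9 in the labelled knockout. Its fall in Gli2CA was -0.64 (SE 0.08, adjusted p = 0.000154 by limma), and every labelled knockout library lay above Cas9-NTC without a call (0.18, adjusted p = 0.0841 by limma). Ect2, the exchange factor for RhoA at the cleavage site, was 17.1, 20.3 and 17.0 in NTC, 11.9, 10.9 and 12 in Gli2CA, 30.7, 30.2 and 28.5 in Cas9-NTC and 31.2, 33.3 and 29.3 in the labelled knockout. It fell in Gli2CA (-0.60, adjusted p = 0.000906 by limma) and was higher in Cas9-NTC than in NTC (0.69, adjusted p = 5.72e-05 by limma). Prc1, which bundles midzone microtubules, was 20.7, 19.8 and 20.8 in NTC, 16.0, 15.0 and 14.9 in Gli2CA, 22.4, 22.2 and 22.1 in Cas9-NTC and 15.8, 16.9 and 20.2 in the labelled knockout. It was lower in every library of both groups than in their controls (-0.39 and -0.33, adjusted p = 0.0119 and 0.0232 by limma), and Rccd1 overlaps 11.1% of its exon length. Anln, the actin-binding protein anillin, was 57.1, 62.8 and 53.8 in NTC and 38.0, 36.9 and 39.2 in Gli2CA (-0.59, adjusted p = 0.00135 by limma).

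Of the last 3 members only Mki67 was called in Gli2CA, and none of them in any other comparison. The Mki67 call held under 6 of 16 alternative settings, over which the adjusted p (limma) ran from 7.51e-05 to 0.156. Top2a and Foxm1 were called under 3 and 2 of these 16. Mki67 (ENSMUSG00000031004, chromosome 7, 135689784 to 135716361, minus strand) encodes the proliferation marker Ki-67. It was at 11.7, 12.1 and 9.77 FPKM in NTC, 6.96, 5.87 and 6.72 in Gli2CA, 10.9, 13.0 and 11.8 in Cas9-NTC and 9.98, 9.66 and 19.3 in the labelled knockout. Every Gli2CA library was below NTC (log2 change -0.70, SE 0.21, adjusted p = 0.0473 by limma), while library 3 of the labelled knockout was above and the other 2 below the Cas9-NTC range (0.05, SE 0.21, adjusted p = 0.866 by limma). Top2a (ENSMUSG00000020914, chromosome 11, 98992943 to 99024189, minus strand), the topoisomerase that untangles chromosomes, was 34.5, 35.8 and 33.0 in NTC, 26.1, 24.4 and 26.0 in Gli2CA, 36.8, 36.4 and 35.3 in Cas9-NTC and 25.5, 32.1 and 43.6 in the labelled knockout. It did not overlap between NTC and Gli2CA but missed the threshold (-0.42, SE 0.15, adjusted p = 0.0931 by limma).

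Foxm1 (ENSMUSG00000001517, chromosome 6, 128362967 to 128376146, plus strand), the transcription factor of many G2-M genes, was at 16.0, 15.0 and 15.4 FPKM in NTC, 11.5, 9.29 and 11.8 in Gli2CA, 15.6, 17.1 and 17.8 in Cas9-NTC and 10.8, 11.1 and 21.4 in the labelled knockout. Its changes were -0.48 in Gli2CA (SE 0.20, adjusted p = 0.158 by limma) and -0.27 in the labelled knockout (SE 0.20, adjusted p = 0.312 by limma). Every Gli2CA library was below NTC, and in the labelled knockout libraries 1 and 2 were below and library 3 above Cas9-NTC.

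Other cell cycle genes, listed alongside the members with the same earlier results known, moved with them in Gli2CA. Of 53 other G2-M and mitosis genes, 30 were called lower and 1 higher, with a median log2 change of -0.50. The largest falls were those of Psrc1, a spindle protein (9.43, 9.57 and 10.6 FPKM in NTC, 4.62, 4.62 and 5.22 in Gli2CA, log2 change -0.90, adjusted p = 1.62e-05 by limma), Depdc1a (-0.87, adjusted p = 0.0292 by limma) and Cenpm, a centromere protein (-0.85, adjusted p = 5.55e-05 by limma). The rise was that of Zwint, a kinetochore scaffold, from 29.5, 34.6 and 28.3 to 44.6, 43.2 and 41.3 (0.48, adjusted p = 0.00604 by limma), and Zwint was lower in every labelled knockout library than in Cas9-NTC (-0.51, adjusted p = 0.00386 by limma). Of 33 DNA replication and G1-S genes, 11 were called lower and 0 higher in Gli2CA, with 24 and 0 at an unadjusted p under 0.05 and a median of -0.43. Mcm6, a subunit of the replicative helicase, had the largest fall among those called, from 24.3, 25.2 and 23.7 to 15.1, 13.8 and 15.0 (-0.70, adjusted p = 0.00997 by limma). Over all 11860 genes tested, 5.76% were called lower and 8.45% higher in Gli2CA. At an unadjusted p under 0.05, 1392 of them were lower and 1675 higher.

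In the labelled knockout, 10 of the 53 other G2-M genes were called higher and 3 lower. Of the 33 replication genes, 10 (30.3%) were called higher and 0 lower. Over all genes tested, 11.2% were called higher and 15.7% lower. At an unadjusted p under 0.05, 16 replication genes were higher and 3 lower, beside 2447 and 2847 of all 11860 genes. Cenpi, a centromere protein, had the largest rise of the other G2-M genes, from 6.06, 6.09 and 5.46 FPKM in Cas9-NTC to 15.4, 14.2 and 7.94 (log2 change 0.93, adjusted p = 0.00688 by limma). Gins2, a replication fork protein, had the largest of the replication genes, from 5.55, 5.32 and 6.28 to 16.6, 13.8 and 7.17 (0.94, adjusted p = 0.014 by limma). Both show the pattern of Mad2l1 and Spc24, with library 3 above Cas9-NTC by much less than libraries 1 and 2. Gse1 overlaps 67.3% of the exon length of Gins2 on the other strand. Between the control lines, Troap and Gtse1 rose most among the other G2-M genes (1.38 and 1.27, adjusted p = 3.15e-05 and 8.37e-05 by limma).

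Of 20 regulators of these promoters (subunits of MuvB and NF-Y, E2F and retinoblastoma proteins, p53 and p21), 3 were called lower and 1 higher in Gli2CA, a share close to the 14.2% of all genes called in this comparison. Mybl2, which encodes B-MYB, went from 7.71, 6.2 and 7.5 FPKM in NTC to 3.88, 3.95 and 4.3 in Gli2CA (log2 change -0.69, SE 0.14, adjusted p = 0.00809 by limma). Rbl1, the retinoblastoma relative p107, went from 9.14, 10.7 and 9.48 to 7.02, 6.0 and 6.2 (-0.54, adjusted p = 0.00331 by limma), and in the other comparison from 10.1, 10.1 and 9.92 to 16.0, 16.7 and 13.3 (0.56, adjusted p = 0.00284 by limma). Lin54, the subunit of MuvB that contacts CHR elements, also fell in Gli2CA (-0.40, adjusted p = 0.0178 by limma). Cdkn1a, which encodes the CDK inhibitor p21, was called in all 3 comparisons of groups. Its FPKM was 200.3, 185.0 and 200.4 in NTC, 276.3, 257.6 and 265.8 in Gli2CA, 94.8, 99.3 and 99.1 in Cas9-NTC and 53.9, 63.3 and 72.5 in the labelled knockout. No groups overlapped, and Cdkn1a was called higher in Gli2CA (0.45, SE 0.10, adjusted p = 0.014 by limma), lower in the labelled knockout (-0.63, SE 0.10, adjusted p = 0.002 by limma) and lower in Cas9-NTC than in NTC (-0.99, adjusted p = 9.41e-06 by limma). Its part in the levels of the members was not tested.

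**Figure D5:**
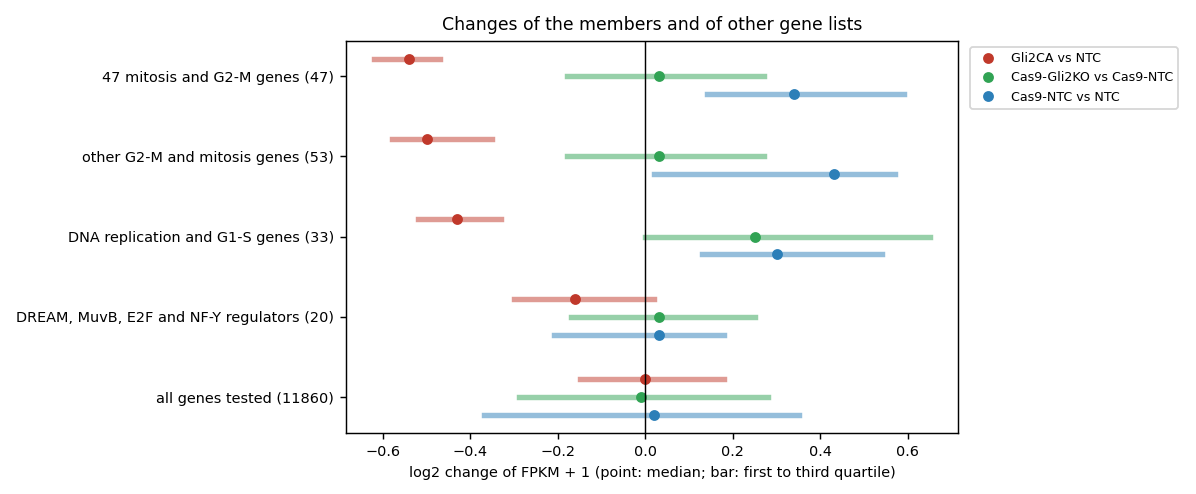
Median log2 change of FPKM + 1 (points) and its lower to upper quartile over genes (bars) in 3 comparisons, for the 47 members, the other lists and all 11860 genes tested. In Gli2CA against NTC the members (median -0.54), the other G2-M genes (-0.50) and the replication genes (-0.43) lie left of all genes (0.00).

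The depth worked out from the values was 15972900 to 25983400 reads per library, and the members were measured from at least 162 reads in every library. Of the marker lists of other cell types, 0 or 1 of 4 endothelial genes reached 1 FPKM, with summed FPKM of 0.0573 to 0.114 in NTC, 0.406 to 0.479 in Gli2CA, 2.5 to 3.06 in Cas9-NTC and 6.19 to 19.3 in the labelled knockout. Cdh5, an endothelial cadherin, made up most of it, at 2.47, 2.97 and 2.99 in Cas9-NTC and 6.17, 8.76 and 19.3 in the labelled knockout. Summed FPKM of 6 leukocyte genes was 1.13 to 1.95 in NTC, 6.6 to 8.12 in Gli2CA, 9.12 to 9.52 in Cas9-NTC and 1.47 to 1.98 in the labelled knockout, and 1 gene, Cd68, reached 1 FPKM in each group, with Cd3e listed at 0 in every library. Fibroblast and keratinocyte markers summed to 7.17 and 3.57 at most. The part of these in the levels of the members was not tested.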

How the data were processed

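RNA was measured in 12 libraries, 3 per group. The deposited values are FPKM per gene, made by the authors and indexed by Ensembl ID; for the aligner, counter, annotation, genome build and use of strand, each is not given in the sources used here. Of 54532 genes, 28400 were at 0 in every library. Dividing FPKM by the value of 1 read, with gene lengths of the GENCODE M21 annotation, gave whole reads within 0.02 for 97.8 to 98.4% of values of up to 20 reads, and a depth of 15972900 to 25983400 reads per library. Intervals and floors cover counting error only.

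Genes that reached 1 FPKM in 3 or more libraries (11860) were kept, and their log2(FPKM + 1) was fitted over all 12 libraries with limma 3.58.1 (R 4.3.3, trended empirical Bayes, 8 residual degrees of freedom). Tests are 2-sided, p-values were adjusted by Benjamini-Hochberg over all genes tested, and genes under 0.05 are called. Tables, promoter searches and figures were made with matplotlib 3.10.9, scipy 1.17.1, pandas 2.3.3 and numpy 2.4.6 under Python 3.11.15. The script was tested on simulated data. The members and lists were chosen with earlier results of these data known.

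Values in every library were to be given for Gli2, for 12 genes (Ccnb1, Cdk1, Plk1, Aurkb, Cdc20, Bub1, Cenpa, Kif11, Tpx2, Top2a, Mki67 and Foxm1), for the 2 called members with the largest change per role and comparison, and for members called in opposite directions. From other lists at most 3 called genes per direction were to be named. Further members were named after their values were seen.

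Alternatives were pseudocounts of 0.1 and 5, no filter, rescaling to a common FPKM total, quantile normalisation, a fit of only the groups compared, library weights, a replicate block, voom on the whole reads, and each library left out. Removal of the trend on gene length, alone and with library 3 of the labelled knockout left out, was chosen after seeing the data. Replicate numbers were not taken to pair the libraries.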

Additional observations from a re-analysis of the deposited data

How the results depend on the processing

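In Gli2CA against NTC, 25 to 44 of the 47 members were called lower and 0 higher under every alternative run, and 24 of the 32 calls held under all 16. Under these alternatives 7.24 to 37.5% of all genes were called in either direction. With each library left out in turn, 25 to 28 members were called lower, beside 9.54 to 11.3% of all genes called. The difference of changes was called lower for 21 to 39 members, while 12.5 to 71.6% of all genes were called, with both highest values under library weights. Over all genes, 1685 calls in Gli2CA became 2916 with only the groups compared and 4445 with library weights.

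The labelled knockout comparison moved most. Its 8 higher calls became 5 with no filter, 5 after rescaling, 0 with only the groups compared (where lower calls were also 0), and 21 with library weights (18 lower). Leaving out each library gave 2 to 16 higher and 1 to 17 lower, with 16 and 17 without library 3, while 11.3 to 65.7% of all genes were called. Without library 3 and with the length trend removed, 19 were higher and 13 lower, while 62.7% of all genes were called. All-gene calls went from 3182 to 2637 with no filter (26132 genes tested) and 2607 after rescaling. They were 762 with only the groups compared, 9158 with library weights and 7793 without library 3. The change of Mki67, 0.05, turned to -0.30 with library weights and ranged from -0.25 (without library 3) to 0.22 (without library 2) with a library left out, and Cdc20 to -0.29 without library 3 and with the length trend removed. The difference of changes gained 2 higher calls with library weights, and 0 to 2 with a library left out. Cas9-NTC against NTC had 2 lower calls with only the groups compared. The cause was not tested.

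With the replicate block, 30 members were called lower in Gli2CA, 9 higher and 3 lower in the labelled knockout, 25 lower in the difference, and 22 higher and 1 lower in Cas9-NTC against NTC. In these 4 comparisons, in that order, 12.4%, 24.2%, 26.1% and 48.0% of all genes were called with the replicate block. Correlations of same-numbered libraries were 0.1, 0.01 and -0.05 for NTC with Gli2CA and 0.25, -0.15 and 0.2 for the Cas9 groups.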
